A study of Mus musculus with 4 samples.

Results

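Genes for the heat shock proteins of the HSP70, HSP90, small and mitochondrial classes, for the DNAJ cochaperones and for the CCT folding ring were compared between Lgr6-positive and Lgr6-negative mouse mammary cells by RNA sequencing. The members were taken by symbol, as every row whose name begins with Hspa, Hspb, Hspd, Hspe, Hsph or Hsp90, with Dnaja, Dnajb or Dnajc and a number, or with Cct and a number, leaving out Hspbap1 and Hspbp1. This gave 81 of the 24442 genes in the table. The cells came from 5-week-old female Lgr6-eGFP-CreErt2 mice, in which the Lgr6 locus holds eGFP and a tamoxifen-inducible Cre recombinase, in the positive and the negative population alike. Mammary glands were digested for 30 minutes at 37 °C with collagenase and hyaluronidase and then for 3 minutes with trypsin, red cells were lysed, and lineage-negative cells were sorted for Lgr6. Each population had 2 libraries, 4 in all. Neither the lineage markers nor how Lgr6-negative cells were gated is given in the labels, and they do not state that replicates are separate animals, so the p-values speak only of the spread among these libraries, part of which may be technical.

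Chaperones bind proteins that are not yet folded or have lost their fold. HSP70 proteins hold and release exposed stretches of a client in an ATP cycle that DNAJ proteins start and nucleotide exchange factors reset. HSP90 proteins act later on clients such as kinases and steroid hormone receptors, small heat shock proteins keep unfolded clients from aggregating, and the CCT ring folds actin and tubulin. Many of these genes are induced by heat through heat shock factor, while those of the endoplasmic reticulum are induced by unfolded secretory proteins.

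The libraries were of similar depth, at 6819127 and 6995568 counts for Lgr6-positive cells, against 6920996 and 7167465 counts for Lgr6-negative cells. Lgr6 itself had 172 and 655 counts in Lgr6-positive cells, against 3 and 10 in Lgr6-negative cells (log2 fold change 5.52, SE 1.47, adjusted p = 0.0510). The populations did not overlap for Lgr6, while its test just missed the threshold. The 2 populations also differed in cell type markers. All 8 mammary epithelial markers were higher in Lgr6-positive cells, with a summed level of 4691.0 and 4649.7 CPM (counts scaled by TMM to a common library size), against 190 and 196 CPM in Lgr6-negative cells. All 10 leukocyte markers were lower, at 1836.0 and 2260.3 CPM summed in Lgr6-positive cells, against 29423.9 and 33728.4 CPM in Lgr6-negative cells. All 5 endothelial markers were higher, at 1299.2 and 1621.4 CPM summed in Lgr6-positive cells, against 150 and 121 CPM in Lgr6-negative cells, and 2 of 5 fibroblast markers were higher. Every difference below is therefore one between bulk populations of unlike makeup, in which fewer cells of a type and less RNA per cell cannot be told apart, and the part of makeup in it was not tested.

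Most chaperone genes did not pass the test. Of the 81 members, 63 had enough counts to be tested, and edgeR's quasi-likelihood test with Benjamini-Hochberg adjustment over all 11661 tested genes called 1 of them higher in Lgr6-positive cells, where 4.49% of all tested genes were called higher. It called 3 lower, where 4.57% of all tested genes were called lower. The higher gene was the small heat shock protein gene Hspb1, and the lower genes were Hsp90aa1, Hspa1a and Hspa8. The share of members called in either direction, 6.35%, was below the 9.06% of all tested genes. The median log2 fold change (Lgr6-positive over Lgr6-negative) was -0.26 over the tested members and 0.10 over all tested genes, with 25 members positive and 38 negative. This order depended on level, with a split at a mean of 50 CPM chosen after seeing the data. At or above 50 CPM the median was -0.05 over members and -0.18 over all tested genes. Below 50 CPM it was -0.30 over members and 0.28 over all tested genes. The 81 genes summed to 1.16% and 1.30% of all counts in Lgr6-positive cells, against 1.46% and 1.17% in Lgr6-negative cells, which overlapped. After TMM scaling their sums did not overlap, at 9717.9 and 11552.9 CPM in Lgr6-positive cells, against 15752.3 and 14962.9 CPM in Lgr6-negative cells. The scaling sets the sums of all genes apart in the same direction. These were 836175.7 and 886424.0 CPM in Lgr6-positive cells, against 1079830.2 and 1274070.6 CPM in Lgr6-negative cells. The separation of the chaperone sums is therefore no result about chaperones.

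The calls of lower genes depended on the scaling. With library-size scaling alone, 1 member was higher, where 5.39% of all tested genes were called higher, and 0 of 63 were lower in edgeR's test, where 2.80% of all tested genes were called lower. At an unadjusted p under 0.05, 5 members were lower with that scaling. The share of all tested genes was not counted at an unadjusted p, nor for the tools DESeq2 and limma-voom. Such counts, here and below, therefore cannot be set against genes at large. Library-size scaling moved the median log2 fold change of all genes up by 0.45. The median over the tested members turned positive under it, at 0.18, against 0.56 over all tested genes. Separation of the libraries was also counted, with no test. In 9 members both Lgr6-positive libraries lay above both Lgr6-negative libraries (30.0% of all tested genes did so), in 20 both lay below (25.9% of all tested genes), and in 34 the populations overlapped.

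**Figure D1:**
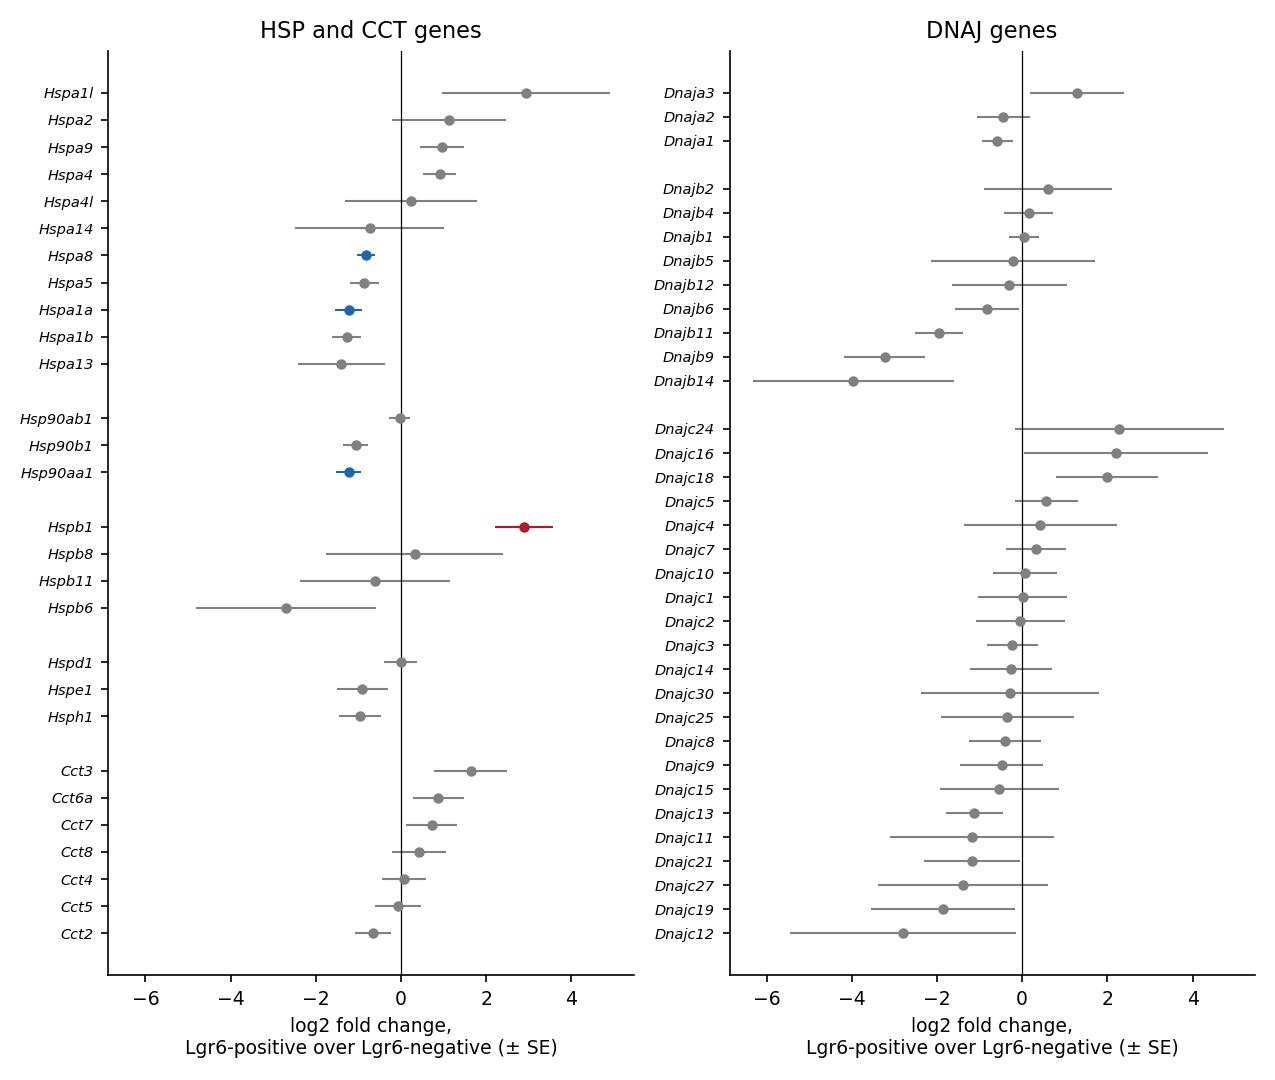
Log2 fold change (Lgr6-positive over Lgr6-negative, horizontal axis, points with bars of 1 SE) of 62 of the 63 tested chaperone genes by family, with Hspa12a left out because it had no counts in Lgr6-negative cells. Red marks the gene that was higher (Hspb1), blue the 3 that were lower (Hspa8, Hspa1a, Hsp90aa1) and grey the genes that did not pass, which include every DNAJ and CCT gene.

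Hspb1 encodes the small heat shock protein known as HSP25 in mouse and HSP27 in human, which binds unfolded proteins and actin filaments. It had 1180 and 1008 counts in Lgr6-positive cells, against 124 and 97 in Lgr6-negative cells. Both Lgr6-positive libraries stood far above both Lgr6-negative ones, and replicates lay close together. On the CPM scale Hspb1 was at 136 ± 12 in Lgr6-positive cells, against 18.3 ± 1.49 in Lgr6-negative cells (mean ± SD over n = 2 libraries of each population, here and throughout), a ratio of 7.45 and a log2 fold change of 2.89 (SE 0.68, adjusted p = 0.0321). The call was held in 11 of 13 alternative settings, with adjusted p between 0.000133 and 0.0736, and was lost in limma-voom (0.0505) and without replicate 2 of the Lgr6-negative cells (0.0736). In GRCm38 it spans bases 135887919 to 135889563 on the plus strand of chromosome 5. In the same libraries the epithelial markers were higher as given above, and their part in the Hspb1 difference was not tested. Of the stretches of 50 bases (the read length) in its longest transcript, 51.6% also occur in the pseudogene Hsp25-ps1, which has no row in the table.

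The other small heat shock protein genes had few counts. Hspb6, which encodes a muscle-enriched member, had 10 and 19 counts in Lgr6-positive cells, against 149 and 3 in Lgr6-negative cells (log2 fold change -2.70, adjusted p = 0.511). Nearly all counts of its Lgr6-negative cells came from replicate 1, and without that library the log2 fold change was 1.73. Hspb11, named with this family though it encodes an intraflagellar transport protein, had 75 and 14 counts in Lgr6-positive cells, against 74 and 30 in Lgr6-negative cells, with overlapping libraries (log2 fold change -0.62, adjusted p = 0.891). Hspb8, which encodes a partner of BAG3, was at 8.95 and 0.253 CPM in Lgr6-positive cells, against 5.77 and 1.6 CPM in Lgr6-negative cells, and completed the 4 tested genes of the family (adjusted p = 0.958). Hspb7 (32 and 0 counts in Lgr6-positive cells, none in Lgr6-negative cells) and Hspb2 (21 and 0, likewise none) had counts in a single library and were not tested.

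Of the 3 HSP90 genes, 1 passed, where 9.06% of all tested genes did. Hsp90aa1, which encodes the stress-inducible cytosolic HSP90, had 3341 and 3871 counts in Lgr6-positive cells, against 6798 and 5890 in Lgr6-negative cells. Both Lgr6-positive libraries lay below both Lgr6-negative ones. Hsp90aa1 fell to 450 ± 57.2 CPM in Lgr6-positive cells, against 1053.8 ± 9.65 CPM in Lgr6-negative cells, a difference past the threshold (log2 fold change -1.23, SE 0.30, adjusted p = 0.0362). Its call was held in 11 of 13 alternatives and lost under library-size scaling (log2 fold change -0.78, adjusted p = 0.141) and in DESeq2 (0.0535), within a range of 0.00544 to 0.141. The gene lies on chromosome 12 from 110690605 to 110702728, on the minus strand, and 58.5% of its 50-base stretches also occur elsewhere, in pseudogenes such as Gm12346.

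Hsp90ab1, which encodes the constitutive cytosolic form, had 11998 and 12382 counts in Lgr6-positive cells, against 10252 and 8416 in Lgr6-negative cells. After scaling it stood at 1520.1 ± 69.1 CPM in Lgr6-positive cells, against 1547.8 ± 73.2 CPM in Lgr6-negative cells, with overlapping libraries (log2 fold change -0.03, SE 0.24, adjusted p = 0.972). That sign depended on the scaling, with 0.42 under library size alone and 0.0084 under RLE factors. A ratio of 2 genes within a library does not depend on the scaling. Hsp90aa1 had 0.278 and 0.313 counts per count of Hsp90ab1 in Lgr6-positive cells, against 0.663 and 0.7 in Lgr6-negative cells, so the balance of the inducible and constitutive gene differed in every library while the level of either rested on the scaling. Hspb1 had 0.0983 and 0.0814 counts per count of Hsp90ab1 in Lgr6-positive cells, against 0.0121 and 0.0115 in Lgr6-negative cells. Such ratios show unequal change between a pair of genes and not which of them changed.

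**Figure D2:**
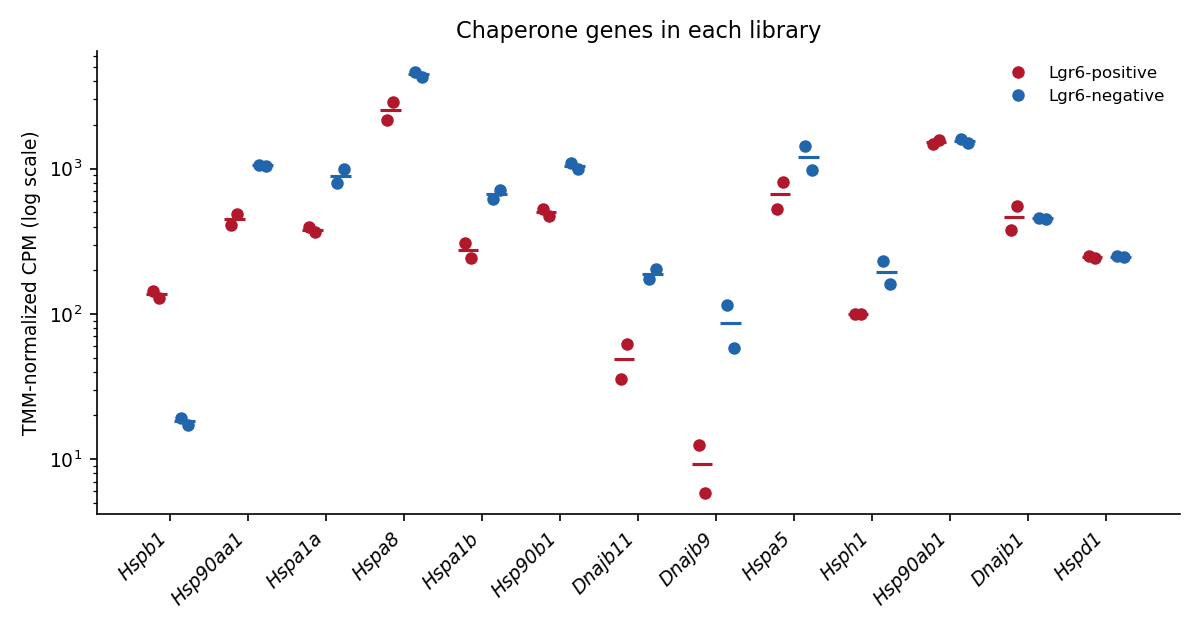
TMM-normalized CPM (vertical axis, log scale) of 13 chaperone genes in each library, with Lgr6-positive points left of Lgr6-negative points and a bar at each mean. Hspb1 was at 145 and 128 CPM in Lgr6-positive cells, against 19.3 and 17.2 CPM in Lgr6-negative cells, and the points of Hsp90ab1, Dnajb1 and Hspd1 overlapped between the populations.

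Among the HSP70 genes, 2 of 12 tested were lower (4.57% of all tested genes) and 0 were higher (4.49%) in edgeR's test, with 2 higher at an unadjusted p under 0.05 (Hspa4 and Hspa12a) and 1 in DESeq2 (Hspa12a). Hspa8 encodes HSC70, the constitutive cytosolic HSP70. This gene had the highest level per length of all members, at 1462.2 CPM per kilobase of its longest coding transcript over the 4 libraries. It had 17751 and 22604 counts in Lgr6-positive cells, against 29794 and 24261 in Lgr6-negative cells. The counts came close between replicate 2 of each population, and after scaling the libraries were apart, at 2176.7 and 2864.2 CPM in Lgr6-positive cells, against 4648.5 and 4312.6 CPM in Lgr6-negative cells. Hspa8 was lower by the smallest change of the 4 called genes (log2 fold change -0.83, SE 0.21, adjusted p = 0.0455). It did not pass under library-size scaling (-0.39, adjusted p = 0.313), under RLE factors (0.0728), in DESeq2 (0.247) and without replicate 1 of the Lgr6-positive cells (0.0762), within a range of 0.0024 to 0.313. It lies on chromosome 9 from 40800984 to 40810087, on the plus strand, and 51.4% of its 50-base stretches also occur in other sequences, among them pseudogenes.

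Hspa1a and Hspa1b encode the heat-inducible HSP70 and are nearly identical, with 60.3% of the 50-base stretches of Hspa1a and 62.3% of those of Hspa1b also found in each other or in Hspa1l. Their separate counts are therefore uncertain. Hspa1a had 3236 and 2892 counts in Lgr6-positive cells, against 5125 and 5582 in Lgr6-negative cells, and was lower. Its mean level was 382 ± 21.5 CPM in Lgr6-positive cells, against 896 ± 136 CPM in Lgr6-negative cells (log2 fold change -1.23, SE 0.31, adjusted p = 0.0432). Its call was lost under library-size scaling (0.159), under RLE factors (0.052), in DESeq2 (0.0528) and without replicate 2 of the Lgr6-negative cells (0.146), within a range of 0.0132 to 0.159. Hspa1b had 2506 and 1924 counts in Lgr6-positive cells, against 3951 and 4030 in Lgr6-negative cells, with the same separation and an adjusted p of 0.0517 (log2 fold change -1.27, SE 0.34). Summed as 1 row, a choice made after seeing the data, the pair had 5742 and 4816 counts in Lgr6-positive cells, against 9076 and 9612 in Lgr6-negative cells (log2 fold change -1.25, SE 0.27, adjusted p = 0.0249). Both lie on the minus strand of chromosome 17, Hspa1a from 34969190 to 34972156 and Hspa1b from 34956436 to 34959238, and 19.0% of the exonic bases of Hspa1a also belong to the annotated gene Gm20481.

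Counts per count of Hspa1b were 1.29 and 1.5 for Hspa1a in Lgr6-positive cells, against 1.3 and 1.39 in Lgr6-negative cells, so the split between the copies overlapped. The inducible pair had 0.323 and 0.213 counts per count of Hspa8 in Lgr6-positive cells, against 0.305 and 0.396 in Lgr6-negative cells, which overlapped as well. Set against Hsp90ab1 the pair was apart, at 0.479 and 0.389 in Lgr6-positive cells, against 0.885 and 1.14 in Lgr6-negative cells, as was Hspa8, at 1.48 and 1.83 in Lgr6-positive cells, against 2.91 and 2.88 in Lgr6-negative cells. In the same libraries the 10 leukocyte markers were lower, and their part in the lower HSP70 and Hsp90aa1 levels was not tested. Of 12 immediate early genes, which respond to tissue dissociation among other stimuli, 3 were higher and 3 lower. That is 50.0% called, against 9.06% of all tested genes. Egr1 (log2 fold change 2.29), Fosb (1.25) and Fos (1.09) were higher, and Nr4a1 (-2.21), Dusp1 (-1.68) and Zfp36 (-0.89) were lower. The summed level of all 12, in which changes in opposite directions offset each other, overlapped. It was 14617.7 and 17486.0 CPM in Lgr6-positive cells, against 16086.4 and 16255.6 CPM in Lgr6-negative cells.

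**Figure D3:**
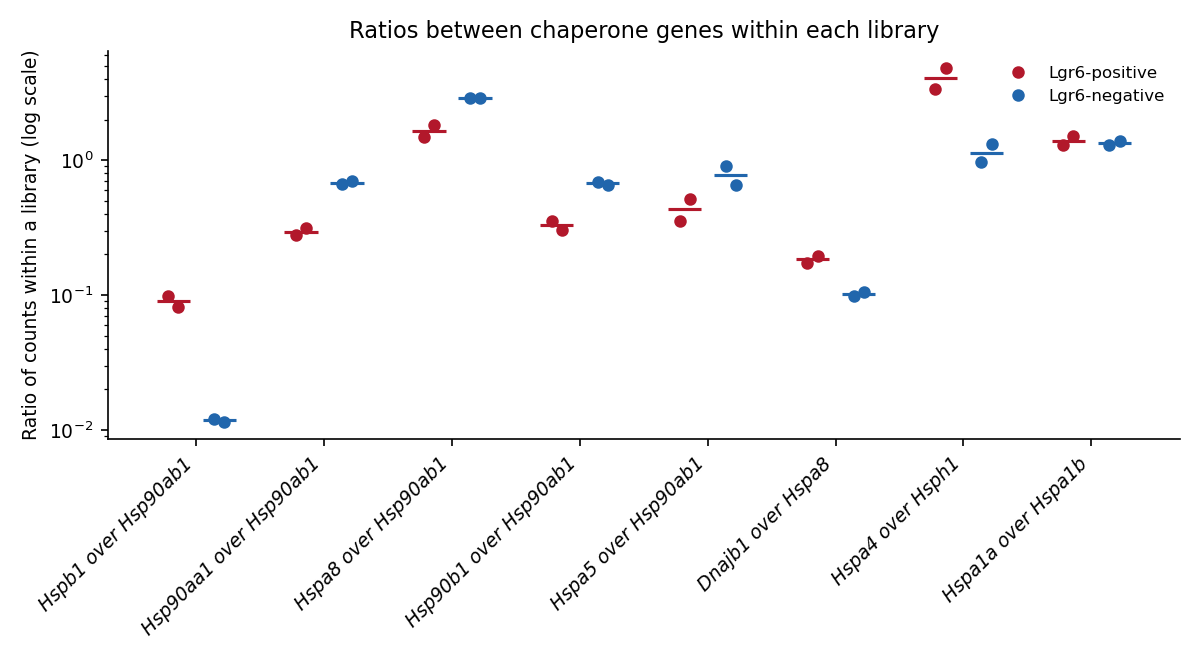
Ratio of the counts of 2 chaperone genes within each library (vertical axis, log scale), which needs no scaling between libraries, with Lgr6-positive points left of Lgr6-negative points and a bar at each mean. The populations were apart in 7 of the 8 ratios shown, as for Hsp90aa1 over Hsp90ab1, and overlapped for Hspa1a over Hspa1b. The ratios are a selection, most of them with Hsp90ab1 as divisor. The ratio of Hspa1a and Hspa1b together over Hspa8, which overlapped, is not shown. How often ratios of any 2 genes are apart was not counted.

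Other HSP70 genes did not pass. Hspa4, which encodes a nucleotide exchange factor of the HSP110 class, had 2719 and 3801 counts in Lgr6-positive cells, against 1424 and 1189 in Lgr6-negative cells (log2 fold change 0.91, SE 0.39, adjusted p = 0.186). Hsph1, the heat-inducible HSP110 gene with the same role, had 809 and 793 counts in Lgr6-positive cells, against 1473 and 905 in Lgr6-negative cells (log2 fold change -0.97, SE 0.49, adjusted p = 0.274). Both had separated libraries on opposite sides, so Hspa4 had 3.36 and 4.79 counts per count of Hsph1 in Lgr6-positive cells, against 0.967 and 1.31 in Lgr6-negative cells. Hspa1l, a testis-enriched HSP70 gene, had 20 and 12 counts in Lgr6-positive cells, against 2 and 1 in Lgr6-negative cells, a ratio of 8 whose 95% counting interval ran from 2.5 to 40.8 (adjusted p = 0.428). Of its exonic bases, 71.9% also belong to the annotated gene Gm10501. Hspa12a, a distant HSP70 relative, had 17 and 325 counts in Lgr6-positive cells and none in either Lgr6-negative library, which made it at least 43.2-fold higher against a floor of 3 counts per library (adjusted p = 0.0759). The bound was 4.16-fold without replicate 2 of the Lgr6-positive cells, which held nearly all of the counts. This interval and this floor take in counting error alone, since PCR copies were not told from separate molecules. Hspa12b (6 and 90 counts in Lgr6-positive cells, against 3 and 3 in Lgr6-negative cells) was below the filter.

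Among the DNAJ genes, 34 were tested and 0 were called in edgeR's quasi-likelihood test at the adjusted threshold, where 9.06% of all tested genes were called. At an unadjusted p under 0.05 there were 2, Dnajb11 and Dnajb9, which DESeq2 also called, and limma-voom called Dnajb11. Dnajb1, which encodes the heat-inducible cytosolic partner of HSP70, had 3094 and 4377 counts in Lgr6-positive cells, against 2934 and 2547 in Lgr6-negative cells. Its scaled levels overlapped, at 379 and 555 CPM in Lgr6-positive cells, against 458 and 453 CPM in Lgr6-negative cells (log2 fold change 0.04, SE 0.35, adjusted p = 0.974), and the sign depended on the scaling. Dnajb1 had 0.174 and 0.194 counts per count of Hspa8 in Lgr6-positive cells, against 0.0985 and 0.105 in Lgr6-negative cells. The populations were apart in this ratio, in the direction opposite to that of Hsp90aa1 over Hsp90ab1. After TMM scaling Dnajb1 itself overlapped while its divisor Hspa8 was lower (log2 fold change -0.83). In the HSP90 pair the divisor Hsp90ab1 overlapped (-0.03) and Hsp90aa1 was lower (-1.23). The 2 ratios therefore do not show opposite changes of the inducible genes.

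Of the Dnaja genes, Dnaja1 and Dnaja2 encode cytosolic type I cochaperones of HSP70. Dnaja1 had 2260 and 3195 counts in Lgr6-positive cells, against 3312 and 2844 in Lgr6-negative cells (log2 fold change -0.58, adjusted p = 0.377), and 18.7% of its 50-base stretches also occur in pseudogenes. Dnaja2 had 631 and 466 counts in Lgr6-positive cells, against 627 and 493 in Lgr6-negative cells (-0.44, adjusted p = 0.753). Dnaja3, which encodes a mitochondrial cochaperone, had 682 and 146 counts in Lgr6-positive cells, against 196 and 65 in Lgr6-negative cells (1.28, adjusted p = 0.562), and its positive sign came from replicate 1 of the Lgr6-positive cells, with -0.19 without it. Dnaja4 had 140 and 0 counts in Lgr6-positive cells, against 7 and 1 in Lgr6-negative cells, and was not tested.

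Dnajb4, which encodes another cytosolic type II cochaperone, had 685 and 1743 counts in Lgr6-positive cells, against 938 and 727 in Lgr6-negative cells (log2 fold change 0.15, adjusted p = 0.927). Of the Dnajc genes with the highest levels, Dnajc5 encodes the synaptic vesicle cochaperone CSPα and had 475 and 2075 counts in Lgr6-positive cells, against 489 and 785 in Lgr6-negative cells (0.57, adjusted p = 0.719). Replicate 2 of the Lgr6-positive cells stood above the other libraries in both genes, and without it the log2 fold changes were -0.74 for Dnajb4 and -0.92 for Dnajc5. Dnajc18, a membrane-anchored DNAJ gene, had 120 and 649 counts in Lgr6-positive cells, against 104 and 45 in Lgr6-negative cells (adjusted p = 0.364). Dnajc13, which encodes the endosomal protein RME-8, had 715 and 262 counts in Lgr6-positive cells, against 943 and 655 in Lgr6-negative cells (-1.12, adjusted p = 0.355). Among untested genes Dnajc6, which encodes the clathrin uncoating factor auxilin, had 324 and 10 counts in Lgr6-positive cells, against 3 and 0 in Lgr6-negative cells. Dnajb13 had 4 and 99 counts in Lgr6-positive cells, against 0 and 1 in Lgr6-negative cells. In both, a single Lgr6-positive library held nearly all counts.

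The 10 members listed as acting in the endoplasmic reticulum had a median log2 fold change of -0.96, with 8 negative and 2 positive. In edgeR's test 0 were called (9.06% of all tested genes were), 4 had an unadjusted p under 0.05, and DESeq2 and limma-voom called 2 each. For the unadjusted p, DESeq2 and limma-voom the share of all tested genes was not counted. In 6 of 10 both Lgr6-positive libraries lay below both Lgr6-negative libraries, as in 25.9% of all tested genes. The leaning depended on the list. With Dnajc16, Dnajc18 and Dnajc25, which also encode proteins of this compartment and were added after seeing the data, the median over 13 members was -0.35, with 9 negative and 4 positive. Hsp90b1, which encodes GRP94, the HSP90 of this compartment, had 4288 and 3740 counts in Lgr6-positive cells, against 7056 and 5558 in Lgr6-negative cells (log2 fold change -1.06, SE 0.29, adjusted p = 0.0563). Hspa5, which encodes BiP, its HSP70, had 4287 and 6426 counts in Lgr6-positive cells, against 9225 and 5541 in Lgr6-negative cells (-0.86, SE 0.34, adjusted p = 0.149). Raw counts of Hspa5 overlapped, while its scaled levels were apart, at 526 and 814 CPM in Lgr6-positive cells, against 1439.3 and 985 CPM in Lgr6-negative cells.

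Dnajb11 encodes ERdj3, a soluble cochaperone of BiP, and had 289 and 493 counts in Lgr6-positive cells, against 1118 and 1153 in Lgr6-negative cells (log2 fold change -1.95, SE 0.57, adjusted p = 0.0687). Dnajb9 encodes ERdj4, which represses the stress sensor IRE1 through BiP, and had 103 and 46 counts in Lgr6-positive cells, against 738 and 326 in Lgr6-negative cells (-3.23, SE 0.95, adjusted p = 0.0705). In both genes every Lgr6-positive library lay below every Lgr6-negative one by more than the gap between replicates on the log2 scale. Each passed in 4 of 13 alternatives, with adjusted p between 0.00709 and 0.215 for Dnajb11 and between 0.002 and 0.351 for Dnajb9. Relative to Hspa5, Dnajb9 had 0.024 and 0.00716 counts per count in Lgr6-positive cells, against 0.08 and 0.0588 in Lgr6-negative cells, and Dnajb11 had 0.0674 and 0.0767 in Lgr6-positive cells, against 0.121 and 0.208 in Lgr6-negative cells. Dnajc3, which encodes P58IPK, an inhibitor of the kinase PERK, did not share this leaning. It had 1360 and 583 counts in Lgr6-positive cells, against 657 and 1015 in Lgr6-negative cells (-0.23, adjusted p = 0.876), a sign that turned under library-size scaling (0.26).

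Promoter sequences bear on these genes because the reticulum's stress response acts through a known element, and they are shown for the members that hold it. RefSeq sequences of GRCm38.p6, from 250 bases before to 50 after the annotated start, were at hand for 66 of the 81 members and not for Hsp90aa1, Hsp90ab1 or Hspa8. The endoplasmic reticulum stress element was searched on both strands as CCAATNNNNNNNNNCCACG, a search added after seeing the data. It occurred in the promoters of 3 of the 66 members (4.55%), Hspa5, Hsp90b1 and Dnajc3, and of 37 of 27025 genes (0.137%). The capitals mark it in chr2:34771840-34772139 (plus strand) for Hspa5, where it covers positions -65 to -47 from the start. In chr10:86705395-86705694 (minus strand) for Hsp90b1 it occurs on opposite strands at -212 to -194 and at -107 to -89, and in chr14:118937682-118937981 (plus strand) for Dnajc3 at -105 to -87.
Hspa5: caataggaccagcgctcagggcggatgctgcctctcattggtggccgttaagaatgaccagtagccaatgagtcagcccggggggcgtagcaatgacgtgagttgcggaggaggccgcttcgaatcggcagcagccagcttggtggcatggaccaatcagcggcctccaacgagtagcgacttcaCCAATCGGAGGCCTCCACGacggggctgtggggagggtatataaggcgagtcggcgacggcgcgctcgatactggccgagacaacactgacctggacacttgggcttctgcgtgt
Hsp90b1: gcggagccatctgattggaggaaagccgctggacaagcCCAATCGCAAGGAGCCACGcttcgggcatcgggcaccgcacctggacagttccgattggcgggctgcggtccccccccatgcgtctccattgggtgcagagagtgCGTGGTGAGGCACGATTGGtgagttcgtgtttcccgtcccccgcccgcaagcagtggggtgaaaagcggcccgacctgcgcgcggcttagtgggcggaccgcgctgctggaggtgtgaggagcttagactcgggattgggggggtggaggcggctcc
Dnajc3: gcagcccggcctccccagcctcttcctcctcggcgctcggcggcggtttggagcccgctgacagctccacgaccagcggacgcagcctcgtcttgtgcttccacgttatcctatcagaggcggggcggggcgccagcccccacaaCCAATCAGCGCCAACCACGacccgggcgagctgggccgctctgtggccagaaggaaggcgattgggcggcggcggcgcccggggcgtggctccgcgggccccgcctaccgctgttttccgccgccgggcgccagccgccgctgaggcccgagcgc
All 3 genes with the element had negative log2 fold changes that did not pass, -0.86, -1.06 and -0.23. Dnajb9 and Dnajb11 had more negative ones without these letters in their windows. A match is a description of letters, and binding was not measured.

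The log2 fold changes of the mitochondrial members lay on both sides of 0. Hspa9, which encodes mortalin, the HSP70 of the matrix, had 1115 and 1802 counts in Lgr6-positive cells, against 649 and 485 in Lgr6-negative cells (log2 fold change 0.96, SE 0.52, adjusted p = 0.311). Hspd1 encodes HSP60 and had 2043 and 1915 counts in Lgr6-positive cells, against 1595 and 1386 in Lgr6-negative cells (-0.01, SE 0.39, adjusted p = 0.997). Hspe1 encodes HSP10, the lid of the HSP60 ring, and had 687 and 626 counts in Lgr6-positive cells, against 587 and 1210 in Lgr6-negative cells (-0.91, SE 0.60, adjusted p = 0.417). Hspd1 had 2.97 and 3.06 counts per count of Hspe1 in Lgr6-positive cells, against 2.72 and 1.15 in Lgr6-negative cells, with replicate 2 of the Lgr6-negative cells standing apart. Of the 50-base stretches of Hspd1, 44.8% also occur elsewhere, among them pseudogenes. Of the 6 tested members listed as mitochondrial, 2 were positive and 4 negative, a tally that depends on the list. In edgeR's test 0 of them were called, where 9.06% of all tested genes were. None was called in DESeq2, in limma-voom or at an unadjusted p under 0.05.

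Heat shock elements, the sites of heat shock factor, were searched in the same windows on both strands as 3 alternating repeats of GAA and its reverse complement TTC, each 2 bases from the next. They occurred in 4 of the 66 members (6.06%), Hspd1, Hspe1, Hsph1 and Dnajb6, and in 179 of 27025 genes (0.662%). Hspd1 and Hspe1 are transcribed away from each other, and their windows share the same pair of overlapping matches. The capitals mark this pair in chr1:55087883-55088182 (minus strand) for Hspd1, at -144 to -132 and -139 to -127, and the single match in chr5:149636287-149636586 (minus strand) for Hsph1, at 37 to 49 after the start. In the window of Hspe1, on the plus strand, the pair lies at -89 to -77 and -84 to -72. Hsph1 has a further annotated start, and from it the same match lies at 16 to 28.
Hspd1: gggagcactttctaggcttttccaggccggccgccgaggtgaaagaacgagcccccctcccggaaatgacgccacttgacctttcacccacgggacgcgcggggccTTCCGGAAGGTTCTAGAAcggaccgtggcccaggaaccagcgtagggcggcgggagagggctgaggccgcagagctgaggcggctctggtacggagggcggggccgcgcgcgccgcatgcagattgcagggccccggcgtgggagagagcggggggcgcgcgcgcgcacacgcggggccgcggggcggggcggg
Hsph1: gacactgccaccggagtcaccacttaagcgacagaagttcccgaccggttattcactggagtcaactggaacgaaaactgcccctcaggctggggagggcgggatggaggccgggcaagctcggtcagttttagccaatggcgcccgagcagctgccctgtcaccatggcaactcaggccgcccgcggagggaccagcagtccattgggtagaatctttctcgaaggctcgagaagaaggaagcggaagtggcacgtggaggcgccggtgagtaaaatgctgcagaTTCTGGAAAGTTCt
The 4 members with the element had log2 fold changes that did not pass, -0.01 for Hspd1, -0.91 for Hspe1, -0.97 for Hsph1 and -0.82 for Dnajb6. The called genes Hspb1 and Hspa1a held no match to these letters in their windows, which says nothing of heat shock factor at them.

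No CCT gene was called in edgeR's test, in DESeq2, in limma-voom or at an unadjusted p under 0.05. In edgeR's test 9.06% of all tested genes were called, and 0 of so few genes cannot be set apart from that share. The ring is built of related subunits, and the gene of its alpha subunit, Tcp1, has another kind of symbol and was added to the 7 tested members. Of the 8 genes, 6 had positive and 2 negative log2 fold changes, with a median of 0.47, where the median of all tested genes was 0.10. Cct3 had 752 and 549 counts in Lgr6-positive cells, against 86 and 216 in Lgr6-negative cells (log2 fold change 1.64, SE 0.86, adjusted p = 0.295). Cct2, at the other end, had 1175 and 1851 counts in Lgr6-positive cells, against 2026 and 1576 in Lgr6-negative cells (-0.66, SE 0.43, adjusted p = 0.418). Tcp1 had 1615 and 2437 counts in Lgr6-positive cells, against 1111 and 1021 in Lgr6-negative cells (0.51, SE 0.44, adjusted p = 0.556). The libraries were apart on the higher side for Cct3, Cct6a, Cct7 and Tcp1 (30.0% of all tested genes were). They were apart on the lower side for Cct2 (25.9% of all tested genes were) and overlapped for Cct4, Cct5 and Cct8.

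Per length, mean levels of the subunit genes in Lgr6-positive cells ran from 40.9 CPM per kilobase (Cct3) to 104 (Tcp1), against 13.1 (Cct3) to 152 (Cct2) in Lgr6-negative cells. Cct6a was at 850 and 1493 counts in Lgr6-positive cells, against 627 and 347 in Lgr6-negative cells (0.88), and Cct7 at 952 and 1203 in Lgr6-positive cells, against 332 and 625 in Lgr6-negative cells (0.72). Cct4 (0.07), Cct5 (-0.08) and Cct8 (0.42) had signs that turned when single libraries were left out. Cct6b had 1 count and Cct8l1 none.

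**Figure D4:**
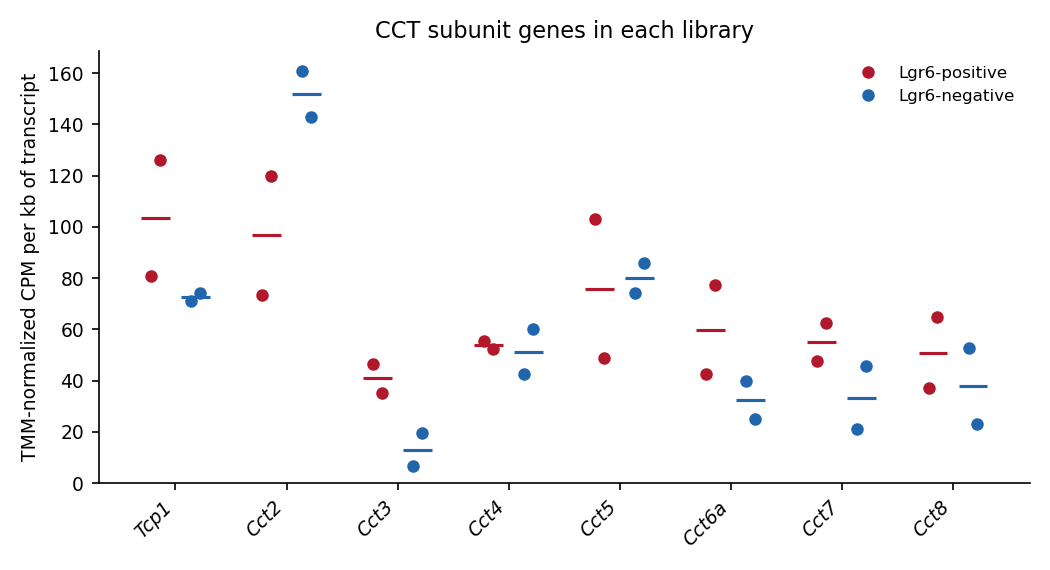
TMM-normalized CPM per kilobase of the longest coding transcript (for Cct6a, of any type) on the vertical axis, for the 8 CCT subunit genes in each library. Lgr6-positive points lie left of Lgr6-negative points, with a bar at each mean. Cct3 averaged 40.9 in Lgr6-positive cells, against 13.1 in Lgr6-negative cells, and Cct2 lay on the other side.

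Replicates lay farther apart at low levels. At a mean level of at least 50 CPM, a split chosen after seeing the data, the median gap between replicates of the tested members was 0.55 on the log2 scale in Lgr6-positive cells, against 0.27 in Lgr6-negative cells. Below 50 CPM it was 2.09 in Lgr6-positive cells, against 0.98 in Lgr6-negative cells. All 4 called members lay in the upper range, where 4 of 32 members (12.5%) and 20.5% of all tested genes were called. In the lower range 0 of 31 members and 4.11% of all tested genes were called. A further 18 members were not tested, 6 of them without a count in any library (Cct8l1, Dnajb7, Dnajb8, Dnajc5b, Dnajc5g and Hspb3).

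**Figure D5:**
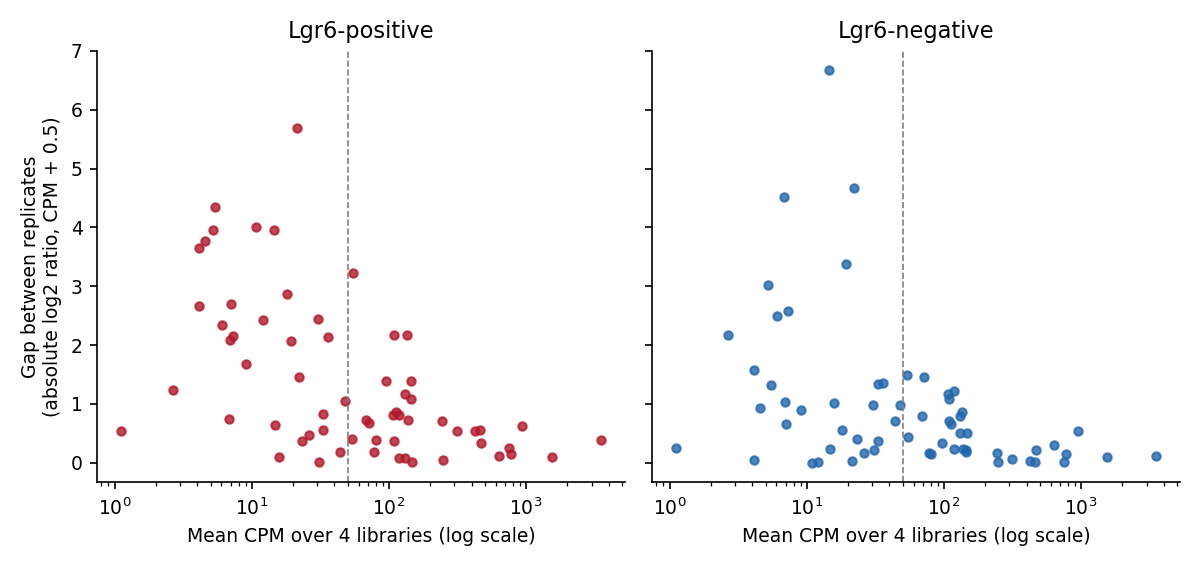
Gap between the 2 replicates (absolute log2 ratio of CPM + 0.5, vertical axis) against mean CPM over the 4 libraries (horizontal axis, log scale) for the 63 tested members, with a panel for each population and a dashed line at 50 CPM. Gaps narrowed with level in both panels and were wider in Lgr6-positive cells below the line, with a median of 2.09 there, against 0.98 in Lgr6-negative cells.

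Genes that work with these chaperones showed few calls. Of 74 listed folding genes that the naming rule leaves out, 69 were tested, 0 were higher and 2 lower, a share of 2.90% against 9.06% of all tested genes. In either direction 10 had an unadjusted p under 0.05 in edgeR's test, 2 of them higher. DESeq2 called 9, 3 of them higher. Hmox1, a heat- and oxidant-inducible gene for haem oxygenase that macrophages also use to recycle iron, had 189 and 112 counts in Lgr6-positive cells, against 1682 and 1932 in Lgr6-negative cells. It was lower under every one of 13 alternatives (log2 fold change -4.02, SE 0.56, adjusted p = 0.00365). Htra2, which encodes a mitochondrial quality control protease, had 32 and 35 counts in Lgr6-positive cells, against 326 and 614 in Lgr6-negative cells (-4.25, SE 1.02, adjusted p = 0.0354). Its call was lost under library-size scaling (0.0654), in limma-voom (0.0896) and without replicate 2 of the Lgr6-negative cells (0.224), within a range of 2.75e-05 to 0.224. Exons of Aup1 and Loxl3 overlap 43.7% of the exonic bases of Htra2, so its counts may be mixed.

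Among regulators of the heat response, Hsf1, the main heat shock factor gene, was at 40.7 ± 3.81 CPM in Lgr6-positive cells, against 41.2 ± 31.8 CPM in Lgr6-negative cells (log2 fold change -0.02). Hsf2, a second factor, had 56 and 9 counts in Lgr6-positive cells, against 264 and 231 in Lgr6-negative cells (-3.35, unadjusted p = 0.0368, adjusted p = 0.163). DESeq2 called it (0.0275), as did edgeR with Lgr6-positive replicate 1 left out (-5.15, adjusted p = 0.0497), within a range up to 0.356. Hsbp1, which encodes a protein that binds the factor's trimer, had 367 and 574 in Lgr6-positive cells, against 633 and 1070 in Lgr6-negative cells (-1.30, adjusted p = 0.246). Of 16 cochaperones of HSP90, 0 passed in edgeR's test (9.06% of all tested genes did), 2 had an unadjusted p under 0.05, and DESeq2 called 2. Fkbp4, which encodes the immunophilin FKBP52 of steroid receptor complexes, had 782 and 1643 counts in Lgr6-positive cells, against 122 and 264 in Lgr6-negative cells (2.20, adjusted p = 0.0975). Unc45a, the myosin cochaperone gene, was at 2.68 (adjusted p = 0.249).

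Of 11 tested HSP70 cochaperones and exchange factors, 9 were positive and the median was 0.89. In edgeR's test 0 were called (9.06% of all tested genes were), and 0 had an unadjusted p under 0.05. DESeq2 called Grpel2 at the edge of the threshold (adjusted p = 0.05 when rounded). Bag3, which links HSP70 to autophagy, had 942 and 565 counts in Lgr6-positive cells, against 131 and 244 in Lgr6-negative cells (1.55, adjusted p = 0.265). Grpel2, a mitochondrial exchange factor gene, was at 2.96 (adjusted p = 0.235), and St13, which encodes the HSP70-interacting protein Hip, at -1.26 (adjusted p = 0.299). Of 11 prefoldin subunits and CCT partners, 0 were called in edgeR's test (9.06% of all tested genes were), 2 had an unadjusted p under 0.05, and DESeq2 called Pdrg1. Pdrg1 was at 3.70 (adjusted p = 0.0945), while the prefoldin subunit gene Pfdn5 had 1578 and 681 counts in Lgr6-positive cells, against 2144 and 2325 in Lgr6-negative cells (-1.42, adjusted p = 0.108).

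Of 15 further folding and stress genes of the endoplasmic reticulum, 13 were negative, 8 had both Lgr6-positive libraries below both Lgr6-negative ones (25.9% of all tested genes did), and the median was -0.72 (0.10 over all tested genes). In edgeR's test 0 were called (9.06% of all tested genes were), 3 had an unadjusted p under 0.05 (Manf, Atf4 and Ddit3), and DESeq2 called Manf and Ddit3. Manf, a secreted stress-response protein gene, had 71 and 4 counts in Lgr6-positive cells, against 444 and 394 in Lgr6-negative cells (-3.91, adjusted p = 0.112). Leaving out Lgr6-positive replicate 1 gave -7.05 (adjusted p = 0.00145), and over all alternatives adjusted p ran up to 0.175. Atf4, a transcription factor gene of the integrated stress response, had 742 and 1187 in Lgr6-positive cells, against 1512 and 1977 in Lgr6-negative cells (-1.28, adjusted p = 0.129). Its target Ddit3, which encodes CHOP, had 3 and 3 in Lgr6-positive cells, against 87 and 55 in Lgr6-negative cells (-4.90, adjusted p = 0.167). The leukocyte markers moved with these genes too, and their part was not tested. In the mitochondrial list, Trap1, the HSP90 gene of that compartment, had 693 and 412 counts in Lgr6-positive cells, against 160 and 230 in Lgr6-negative cells (1.06, adjusted p = 0.508), and Hscb, a DNAJ-type gene of iron-sulfur assembly, had 73 and 2 in Lgr6-positive cells, against 107 and 379 in Lgr6-negative cells (-3.19, adjusted p = 0.293). For Hscb, leaving out Lgr6-positive replicate 1 gave -7.27 (adjusted p = 0.0134) and leaving out Lgr6-negative replicate 2 gave -1.89 (0.775). Serpinh1, which encodes the collagen chaperone HSP47, had 495 and 406 counts in Lgr6-positive cells, against 0 and 88 in Lgr6-negative cells (2.84, adjusted p = 0.384). Without replicate 1 of the Lgr6-negative cells it was at 1.83 (adjusted p = 0.552), and without replicate 2, which left no counts in that population, it passed (0.0024). In the same libraries 5 of 5 fibroblast markers were separated in that direction, as were 30.0% of all tested genes. Of these markers 2 passed the test, and their part was not tested. Ubb, a polyubiquitin gene, was at -0.63 (adjusted p = 0.403). Hspbp1, which encodes an exchange factor of HSP70 and is left out of the members by name, was at 2.78 (adjusted p = 0.464).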

How the data were processed

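Total RNA of sorted mammary cells was sequenced in 4 libraries, 2 of each population. Per the labels' protocols, RNA integrity was 5 to 8, amplification took 18 PCR cycles and 50-base read pairs were sequenced. The deposited table holds the authors' expected counts of each gene. RSEM 1.2.22, STAR 2.4.2a and mm10 appear in the submitters' processing notes, while annotation, strand setting and the handling of reads matching several genes were not stated. Fractional values, 3.36% to 4.86% of the genes in each library, were rounded. The ribosomal RNA precursor row Rn45s held 17.2% and 14.5% of the counts in Lgr6-positive and 18.7% and 30.8% in Lgr6-negative libraries, and a floor of 3 counts corresponded to 0.368 to 0.533 CPM.

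The whole table was fitted in edgeR 4.0.16 (R 4.3.3). TMM factors were 1.21 and 1.13 for Lgr6-positive and 0.929 and 0.787 for Lgr6-negative libraries, and filterByExpr had a minimum count of 10 and a minimum total of 15. The quasi-likelihood test (glmQLFit, then glmQLFTest) had no factor but group, with Benjamini-Hochberg adjustment over 11661 genes and a threshold of 0.05. SE was taken as the size of the log2 fold change divided by the root of the F statistic. The steps were tested on simulated data. Alternatives were library-size, RLE and upper-quartile scaling, no Rn45s, no filter, a minimum count of 50, DESeq2 1.42.0, limma-voom (limma 3.58.1), a replicate block and each library left out. Same-numbered libraries did not deviate together (correlation -0.0236) and the labels give no shared source, so the numbers were not taken to pair them.

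The members and the lists of related genes and markers were chosen with earlier results of these data known. Named members are those past the threshold, the 10 with the smallest p in each direction, the 3 with the highest mean CPM in each family, those with counts in 1 population alone, and the CCT subunits with Tcp1, and each related list gives the 3 genes with the smallest p, of which 1 is not reported here. A few genes were named with their values already seen (Hspb2, Hspb7, Hspb8, Hspa12b, Dnaja4, Dnajb13, Dnajc6, Dnajb6, Hsf1 and those without counts). Positions, exons, lengths of the longest coding transcript (for Cct6a, of any type) and shared 50-base stretches came from GENCODE M21 (GRCm38), matched by symbol, and promoters from RefSeq. Further computation used Python 3.11.15, numpy 2.4.6, pandas 2.3.3, scipy 1.17.1 and matplotlib 3.10.9.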

Additional observations from a re-analysis of the deposited data

How the results depend on the processing

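Against 4 members called (1 higher, 3 lower), library-size scaling gave 1 (1 higher, 0 lower), RLE factors 2 (1 lower), leaving out Rn45s 6 (5 lower), no filter 9 (2 higher, 7 lower), the stricter filter 6 (5 lower), DESeq2 5 (2 higher) and limma-voom 6 (0 higher, 6 lower). With the replicate block 5 were called (1 higher, 4 lower), adding Hspa1b. The block was an alternative only, since the numbers do not pair the libraries. With a library left out, 3 to 9 members were called, 0 to 2 higher and 3 to 7 lower. Leaving out Lgr6-positive replicate 1 gave 9, Lgr6-positive replicate 2 gave 8, Lgr6-negative replicate 1 gave 4 and Lgr6-negative replicate 2 gave 3. A population then rests on 1 library that is assumed to vary like the other. Related genes called, 2 as reported, were 1 under library-size scaling and limma-voom, 6 without a filter, 9 in DESeq2, 3 with the replicate block and 2 to 8 with a library left out. The cause of these shifts was not tested. The number of members tested also changed, from 52 with the stricter filter to 75 without a filter. The share of all tested genes called was counted for the main fit and library-size scaling alone. Under the other settings, and at an unadjusted p, the counts of members and related genes cannot be set against genes at large.

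Of 724 values of 56 single genes under 13 alternatives, 29 turned sign, none of them of a called gene. Under library-size scaling these were Cct5 (0.40), Dnaja2 (0.0045), Dnajc3 (0.26), Hsp90ab1 (0.42) and Hspd1 (0.44). RLE factors and DESeq2 alike turned Hsp90ab1 (0.0084) and Hspd1 (0.026), the stricter filter turned Hspd1 (0.018), upper-quartile factors turned Dnajb1 (-0.015), and limma-voom (-0.028) and the replicate block (-0.013) turned Dnajb4. With a library left out in turn, log2 fold changes ran from -0.19 to 2.12 for Dnaja3, -0.72 to 0.34 for Cct5, -0.17 to 0.33 for Cct4, -0.064 to 1.13 for Cct8, -0.29 to 0.28 for Dnajb1, -0.74 to 0.68 for Dnajb4, -0.92 to 1.28 for Dnajc5, -0.94 to 0.21 for Dnajc3, -0.10 to 0.016 for Hsp90ab1, -2.24 to 0.096 for Hspb11 and -3.68 to 1.73 for Hspb6.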
